A study of Mus musculus with 4 samples.

Results

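Apoe (ENSMUSG00000002985 in the deposited gene table), the gene of apolipoprotein E, was followed through cultured mouse muscle stem cells, with most attention to the cells with low Myog. It is 1 of the 13772 genes in the tables. It was chosen from earlier results of these same cells, in which its level and the share of cells holding it differed between libraries and along Myog. Those differences are therefore descriptions here and not tests. Cells with Myog, the transcription factor that opens terminal muscle differentiation, below 7 on the log2(CPM + 1) scale are called undifferentiated. The name rests on Myog alone, and some of these cells held much myocyte message, as given below. Young cells on soft substrate gave 526 of 1360 such cells and on stiff 558 of 1479. Aged cells gave 271 of 1333 on soft and 263 of 1738 on stiff. They were split by whether at least 1 molecule of Pax7, the factor that marks muscle stem cells, was counted.

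The cells came from skeletal muscle of wild-type C57BL/6 mice, young or aged. All were kept for 7 days in medium with 10% fetal bovine serum on polydimethylsiloxane, an elastic silicone, of 12 kPa (soft) or 29 kPa (stiff). Each combination of age and stiffness was 1 library of single cells, so no difference could be tested against replicates. The sources used here do not give the ages in months, the number or sex of the animals, or whether animals were pooled. Age and library, and stiffness and library, cannot be told apart.

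Apolipoprotein E is a secreted protein that carries cholesterol and other lipids between cells and is taken up through receptors of the low-density lipoprotein receptor family. It is best known from liver, macrophages and astrocytes. In macrophages and astrocytes its transcription is raised by the liver X receptors, which sense oxidised cholesterol. In muscle stem cells, Pax7 and Myf5 mark the undifferentiated state, Myod1 the committed myoblast, and Myog the myocyte that has left the cell cycle.

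Depth and cell identity were alike in kind across libraries. The libraries held 44004661 to 68244887 UMIs, the molecules counted once each, and the median cell held 28612 to 37081. Markers of the labelled muscle stem cells were present: Pax7 was detected in 88.6% to 94.5% and Myod1 in 93.0% to 94.6% of undifferentiated cells. Of the 10 macrophage markers, summed levels were 2.87 to 9.49 CPM (the gene's UMIs over all UMIs of a cell, on 1 scale for all cells) in these cells, and Ptprc, the pan-leukocyte antigen, was at 0 in 3 libraries and at 0.122 CPM in aged soft. The 3 endothelial markers measured summed to at most 0.505 CPM, with Cdh5 at 0 in aged soft. The 7 fibro-adipogenic markers summed to 773 to 1015 CPM. Pdgfra stayed at 0.755 to 1.46 CPM, so other members made up nearly all of that sum. The 5 glial markers summed to 508 to 660 CPM, with Sox10 at 0 in both stiff libraries and at 0.537 CPM at most. The 4 pericyte and smooth muscle markers summed to 195 to 224 CPM and the 3 tenocyte markers to 35.6 to 48.7 CPM. Cells holding UMIs of at least 2 markers of 1 non-myogenic class numbered 1 in each library except aged stiff, which had 0, and leaving them out moved no Apoe ratio beyond its counting interval. This count used narrower lists than the sums, without Dcn, Ly6a, Notch3 and some other members, so cells marked by those alone were not counted. One barcode was shared between young soft and aged stiff, and 0 between each other pair of libraries.

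Apoe was found in fewer cells and at a lower mean in the aged libraries. Over all cells the mean level was 197 CPM in young soft, 157 in young stiff, 51.1 in aged soft and 44.0 in aged stiff. An Apoe UMI was counted in 28.0% (95% exact binomial interval 25.6 to 30.5), 24.7% (22.5 to 27.0), 13.6% (11.8 to 15.5) and 14.6% (13.0 to 16.4) of cells in the same order. The 2 young libraries lay above both aged libraries in both measures. Intervals cover counting error only.

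Most Apoe sat in the undifferentiated cells, which were also the class that was rarer in the aged cultures. They made up 38.7% of cells in young soft, 37.7% in young stiff, 20.3% in aged soft and 15.1% in aged stiff. They carried 91.1%, 84.0%, 59.5% and 80.3% of the summed Apoe CPM of their libraries. Had each library held the classes in the proportions of young soft, its mean over all cells would have been 197, 160, 73.7 and 96.5 CPM. The aged libraries stayed below both young ones after that reweighting, and aged stiff rose above aged soft.

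Within undifferentiated cells the mean was 464 CPM in young soft, 350 in young stiff, 150 in aged soft and 233 in aged stiff. The share of these cells with an Apoe UMI was 49.0% (44.7 to 53.4), 44.3% (40.1 to 48.5), 26.9% (21.7 to 32.6) and 27.8% (22.4 to 33.6). The shares of the young libraries overlapped each other, as did those of the aged libraries, and the young intervals lay wholly above the aged ones. The median undifferentiated cell had 30910 UMIs in young soft and 23301 to 24341 in the other 3 libraries. With every cell thinned to 10000 UMIs and undifferentiated cells picked anew from the thinned counts, the shares were 37.4%, 31.6%, 17.1% and 21.9%, in the same order by age. Leaving out shallower cells for this removed 7, 11, 11 and 2 cells.

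**Figure D1:**
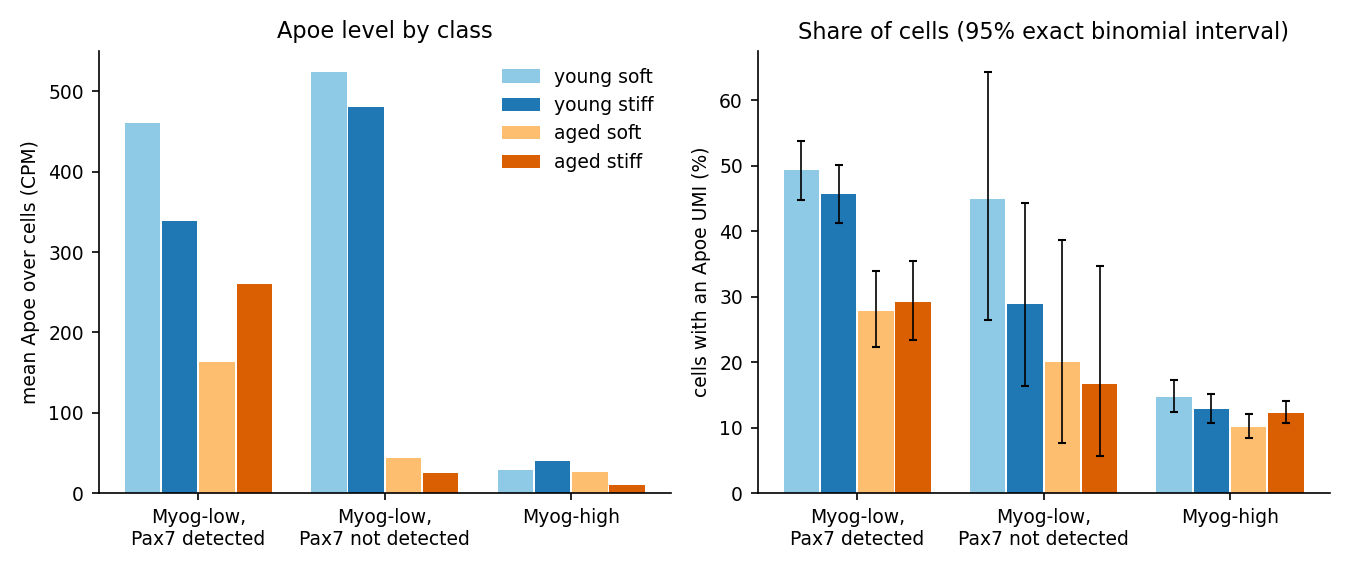
Mean Apoe level (left, CPM, 1 library a bar) and share of cells with an Apoe UMI (right, percent, error bars are 95% exact binomial intervals for counting error) in undifferentiated cells with and without Pax7 and in Myog-high cells of the 4 libraries. In cells with Pax7 the young shares of 49.3% and 45.6% stand above the aged ones of 27.8% and 29.2%, and the class without Pax7 has wide intervals.

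Apoe UMIs were concentrated in few cells. The median undifferentiated cell held no Apoe UMI in any library, and the highest cell stood at 465, 252, 276 and 128 UMIs. The 10 cells with most Apoe held 36.2% of the Apoe UMIs of undifferentiated cells in young soft, 33.9% in young stiff, 74.4% in aged soft and 68.6% in aged stiff. In aged soft the highest cell alone held 276 of 874 UMIs, while the next held 83. Means in the aged libraries thus rested on fewer cells, and their counting intervals leave out the spread between cells, whose SD was 1864, 1189, 838 and 882 CPM.

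**Figure D2:**
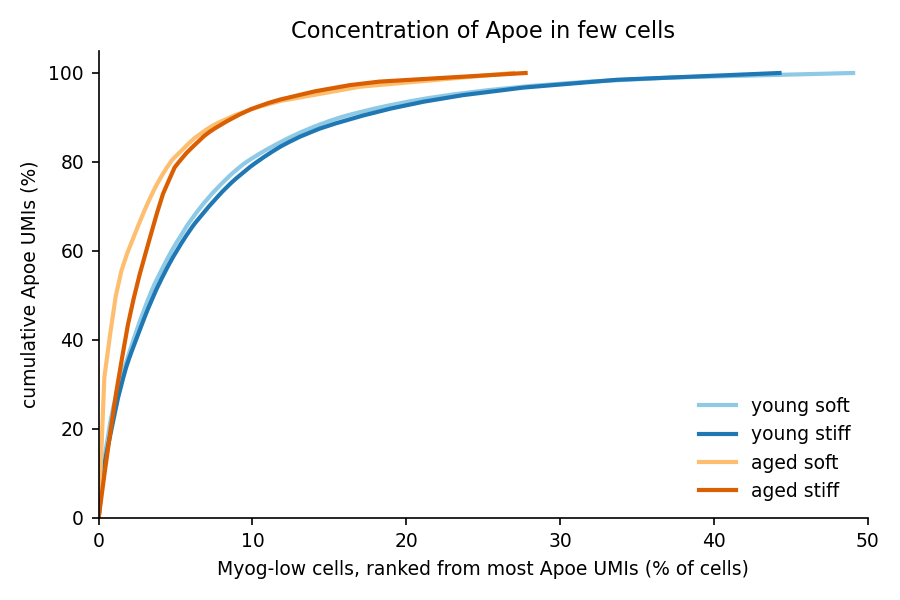
Cumulative share of Apoe UMIs (vertical axis, percent) over undifferentiated cells ranked from the most Apoe UMIs (horizontal axis, percent of cells), 1 line a library. The aged lines climb faster, since 10 cells hold 74.4% and 68.6% of UMIs there against 36.2% and 33.9% in the young libraries.

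A cell at 1000 CPM of Apoe or more is called Apoe-high below, a limit set after the values were seen. There were 53 such cells in young soft (10.1% of undifferentiated cells, 7.64 to 13.0), 53 in young stiff (9.50%, 7.20 to 12.2), 7 in aged soft (2.58%, 1.04 to 5.25) and 15 in aged stiff (5.70%, 3.23 to 9.23). They held 80.7%, 77.3%, 65.7% and 81.4% of the Apoe UMIs of the class. The mean among them was 3822, 2983, 4081 and 3410 CPM, in which the young and aged libraries alternate. The share of Apoe-high cells was lower in both aged libraries, with the interval of aged stiff overlapping those of both young libraries.

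Aged against young on the soft substrate gave the lowest of the 4 Apoe ratios in undifferentiated cells, at -1.60 on the log2 scale (ratio of mean CPM plus a pseudocount of 5). The ratio of summed UMIs was 0.355 (exact interval 0.330 to 0.381). Of the 6497 genes that reached 20 CPM in one library or the other, 348 (5.36%) were at least 1.5-fold lower, 226 (3.48%) were higher by as much, and 12 lay lower than Apoe. On the stiff substrate the log2 ratio was -0.57, just short of 1.5-fold, where 319 of 6444 genes (4.95%) were at least that much lower, 250 (3.88%) higher, and 334 lay lower than Apoe. Scaling by the median of gene ratios instead of the total raised both age comparisons by 0.21, to -1.39 and -0.37, and turned the balance of all genes. Of the genes past 1.5-fold, 39.4% on soft and 43.9% on stiff were higher in aged cells with the first scaling, and 71.7% and 74.7% with the second. Apoe was lower in the aged libraries under both. The aged undifferentiated cells also held more message of differentiating myocytes: the 10 markers of that class summed to 818 and 535 CPM in the young and to 3499 and 5098 CPM in the aged libraries. With cells at 1000 CPM or more of Acta1, Myl1, Mylpf and Tnnt3 together left out, the mean was 469, 353, 156 and 256 CPM and the log2 ratios of aged to young were -1.55 and -0.46.

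Stiff against soft went opposite ways in the 2 ages. In young undifferentiated cells the log2 ratio was -0.40 (UMI ratio 0.756, 0.725 to 0.787), where 22 of 6346 genes (0.347%) were at least 1.5-fold lower and 4 (0.063%) higher, and Apoe was in neither group. In aged cells it was 0.63 (UMI ratio 1.46, 1.34 to 1.59), and Apoe was 1 of the 40 among 6236 genes (0.641%) at least 1.5-fold higher, with 28 (0.449%) lower. Higher genes were 58.8% of those past 1.5-fold there, and 69.4% with the other scaling. The share of aged cells with an Apoe UMI moved by less than its interval, from 26.9% to 27.8%, and the difference in level came with 7 Apoe-high cells on soft and 15 on stiff. In cells with no Myog UMI at all the aged direction turned: the mean was 199 CPM on soft (179 cells) and 187 on stiff (156 cells), a log2 ratio of -0.090. In the same cells the young libraries stood at 496 and 412 CPM, and aged against young was -1.30 on soft and -1.12 on stiff.

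Apoe was found in a smaller share of the cells above the Myog limit of 7 than of those below it. In young soft the share of cells with an Apoe UMI was 53.6% where Myog was not detected, 44.4% above 0 and up to 6 on the log2(CPM + 1) scale, 34.7% from 6 to 7 and 22.2% from 7 to 8, and 12.4% to 19.7% beyond. Young stiff ran through 46.9%, 36.4%, 31.4% and 19.2% over the same steps, and aged soft through 26.8%, 27.4%, 26.7% and 17.1%. Aged stiff had 29.5%, 30.8%, 10.3% and 16.4%. The young libraries thus declined in every step up to the limit of 7, and the aged ones began lower and were flat at first. Above 8 the 4 libraries lay between 6.98% and 19.7%. From the step of 10 to 12 to that of 12 and over, the share rose from 12.4% to 19.7% in young soft. It rose from 9.82% to 18.4% in young stiff and from 12.2% to 16.8% in aged stiff, and fell from 11.7% to 10.0% in aged soft.

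The limit at 7 cut through few cells. Those from 6 to 7 numbered 49, 35, 30 and 29, with mean Apoe of 685, 69.3, 28.3 and 198 CPM, and those from 7 to 8 numbered 36, 26, 35 and 55, with 83.9, 33.1, 17.9 and 8.32 CPM. In all 4 libraries the cells just below the limit had more Apoe on average than those just above it. The high value of young soft just below the limit came from few cells, 4 of the 49 being Apoe-high.

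**Figure D3:**
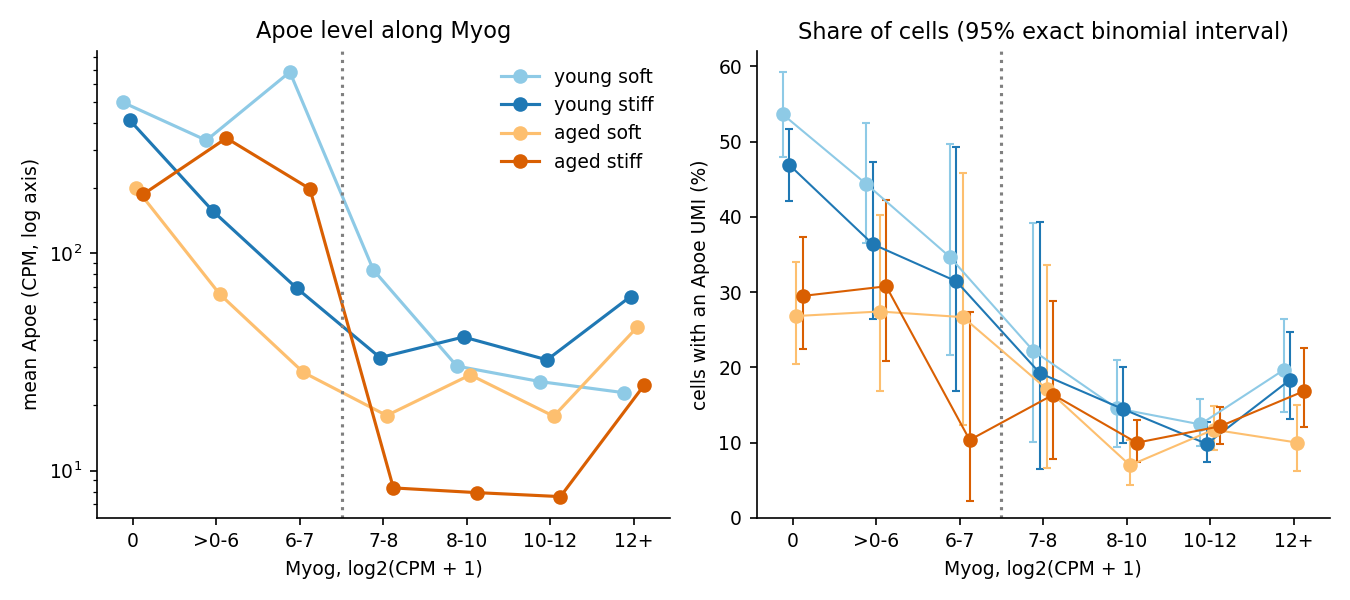
Mean Apoe (left, CPM on a log axis) and share of cells with an Apoe UMI (right, percent, 95% exact binomial intervals) in 7 steps of Myog, in log2(CPM + 1), with a dotted line at the limit of 7. Young libraries start at 53.6% and 46.9% where Myog was not detected and aged ones at 26.8% and 29.5%, and none exceeds 22.2% from 7 upward.

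Myog-high cells, which had reached 7 or more, formed the comparison population. Their mean Apoe was 28.5 CPM in young soft, 40.5 in young stiff, 26.0 in aged soft and 10.2 in aged stiff. An Apoe UMI was present in 14.7%, 12.8%, 10.2% and 12.3% of them, at a median depth of 38733, 31270, 35844 and 38922 UMIs, and in 6.54%, 6.32%, 5.02% and 4.42% after thinning. These shares spanned a narrower range than those of undifferentiated cells. No cell type known to lack Apoe was at hand in these cultures, so the level that free RNA gives was not measured. Undifferentiated cells stood above them by log2 ratios of 3.81, 2.96, 2.32 and 3.97, where 30.3%, 31.8%, 33.9% and 35.0% of the genes measured were at least 1.5-fold higher. Apoe-high cells were also met here, 6, 6, 8 and 2 of them, of which 5, 4, 5 and 1 held Pax7.

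Splitting undifferentiated cells by Pax7 left nearly all of them on the Pax7 side, 497, 513, 241 and 233 cells against 29, 45, 30 and 30. Cells with Pax7 had mean Apoe of 460 CPM in young soft, 339 in young stiff, 163 in aged soft and 260 in aged stiff. Cells without it had 524, 480, 43.4 and 25.1 CPM. In the young libraries the classes differed by less than 1.5-fold, and in the aged ones the class without Pax7 was low. No cell without Pax7 was Apoe-high in the aged libraries, 0 of 30 in each, which allows a share of up to 10% by the limit of 3 cells and 11.6% by the exact interval, against 5 of 29 and 3 of 45 in the young libraries. After thinning, 3 of 104 and 2 of 96 aged cells without Pax7 were Apoe-high.

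The log2 ratio of cells with Pax7 to cells without was -0.19 in young soft, -0.50 in young stiff, 1.79 in aged soft and 3.14 in aged stiff, where 5.52% and 2.98% of genes were at least 1.5-fold lower in the first 2 and 19.4% and 25.8% at least 1.5-fold higher in the last 2. The young values hung on 1 cell: without the cell with most Apoe in each class they became 0.52 and 1.02. The aged stiff value dropped to 1.05 after thinning to 10000 UMIs, and the aged soft value was 0.74 with at least 2 Pax7 UMIs required. The aged soft value turned to -1.12 after thinning, where the highest cell, at 11800 CPM, was counted without Pax7 and no cell with Pax7 exceeded 3300 CPM. Cells without Pax7 also differed in other ways. Their 10 myocyte markers summed to 10237, 4190, 26897 and 40254 CPM, against 215 to 586 CPM in cells with Pax7. Myog-high cells had 48652, 52673, 63777 and 68326 CPM of the same markers. Despite low Myog, cells without Pax7 thus held more myocyte message than cells with Pax7, and the name undifferentiated holds less well for them. The part of this message in the Apoe difference was not tested.

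Apoe was also followed over the number of Pax7 UMIs in a cell. In young soft, Apoe was detected in 44.8% of cells with 0, 48.1% with 1, 50% with 2, 45.1% with 3 and 50.5% with 4 or more Pax7 UMIs. Young stiff ran from 28.9% through 40.7%, 48.8% and 46.5% to 46.0%, aged soft through 20%, 36.1%, 31.8%, 21.2% and 25.8%, and aged stiff through 16.7%, 30.6%, 28.6%, 35.1% and 27.2%. Across undifferentiated cells the Pearson r between Apoe and Pax7 on the log2(CPM + 1) scale was 0.056, 0.13, 0.0065 and 0.12, weak values in sparse counts that share each cell's depth. Detection of Apoe was lowest without Pax7 in every library, within the wide intervals of that class, 26.4% to 64.3%, 16.4% to 44.3%, 7.71% to 38.6% and 5.64% to 34.7%. Cells with 4 or more Pax7 UMIs had the highest median depth of these steps in every library except aged stiff. With cells thinned to 10000 UMIs, the shares from 0 to 4 or more Pax7 UMIs were 34.6%, 37.6%, 38.5%, 36.7% and 43.4% in young soft and 28.2%, 26.8%, 33.9%, 39.1% and 45.1% in young stiff. In aged soft they were 18.3%, 16.9%, 18.2%, 13.9% and 15.6%, and in aged stiff 13.5%, 22.2%, 20.8%, 43.5% and 32.3%. At matched depth the share thus climbed from 1 UMI on in young stiff, and aged soft stayed flat.

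Apoe was higher outside the cell cycle. Cycling cells were those with at least 2 UMIs over Mki67, Top2a, Ccnb1, Cdk1, Cenpf and Hmmr, genes of dividing cells, and made up 65.2%, 59.5%, 48.3% and 43.3% of undifferentiated cells. In non-cycling cells Apoe averaged 1051 CPM in young soft, 735 in young stiff, 181 in aged soft and 317 in aged stiff. In cycling cells it averaged 150, 88.3, 116 and 124 CPM. The log2 ratios of aged to young were -2.51 on soft and -1.20 on stiff in non-cycling cells and -0.36 and 0.47 in cycling cells. With cells thinned to 10000 UMIs and both classes picked anew, they were -2.14 and -1.09 in non-cycling and -2.89 and -0.64 in cycling cells. The smaller age difference of cycling cells was thus not kept on soft, and on stiff its direction turned. The highest aged soft cell, at 11845 CPM, was counted as cycling before thinning and as non-cycling after it.

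Non-cycling against cycling gave log2 ratios of 2.77, 2.99, 0.62 and 1.31, where 4.78%, 4.71%, 4.65% and 5.70% of genes were at least 1.5-fold higher. Of 6603 genes in young stiff, 0 lay above Apoe, and of 6631 in young soft, 4 did. The aged cycling means rested on few cells: 1 Apoe-high cell of 131 held 72.8% of the Apoe UMIs of that class in aged soft, and 3 of 114 held 85.2% in aged stiff. After thinning the cycling means were 139, 88.6, 14.4 and 55.1 CPM, the non-cycling ones 899.6, 622, 200 and 290 CPM, and the log2 ratios 2.65, 2.74, 3.40 and 2.30, so that aged soft went from the lowest ratio to the highest and aged stiff was the lowest. The aged soft change came with its highest cell changing class. No thinned cycling cell there exceeded 500 CPM, and that cell, at 11800 CPM, was then counted as non-cycling. The share of cells with an Apoe UMI was 62.3%, 59.7%, 32.1% and 35.6% in non-cycling and 42.0%, 33.7%, 21.4% and 17.5% in cycling cells. In every library the non-cycling share was the higher, and the young non-cycling cells stood highest of all 8 classes. Weighting each library to the same mix of cycling state and Pax7 gave log2 ratios of aged to young of -1.84 and -0.77 and of stiff to soft of -0.54 in young and 0.53 in aged cells.

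**Figure D4:**
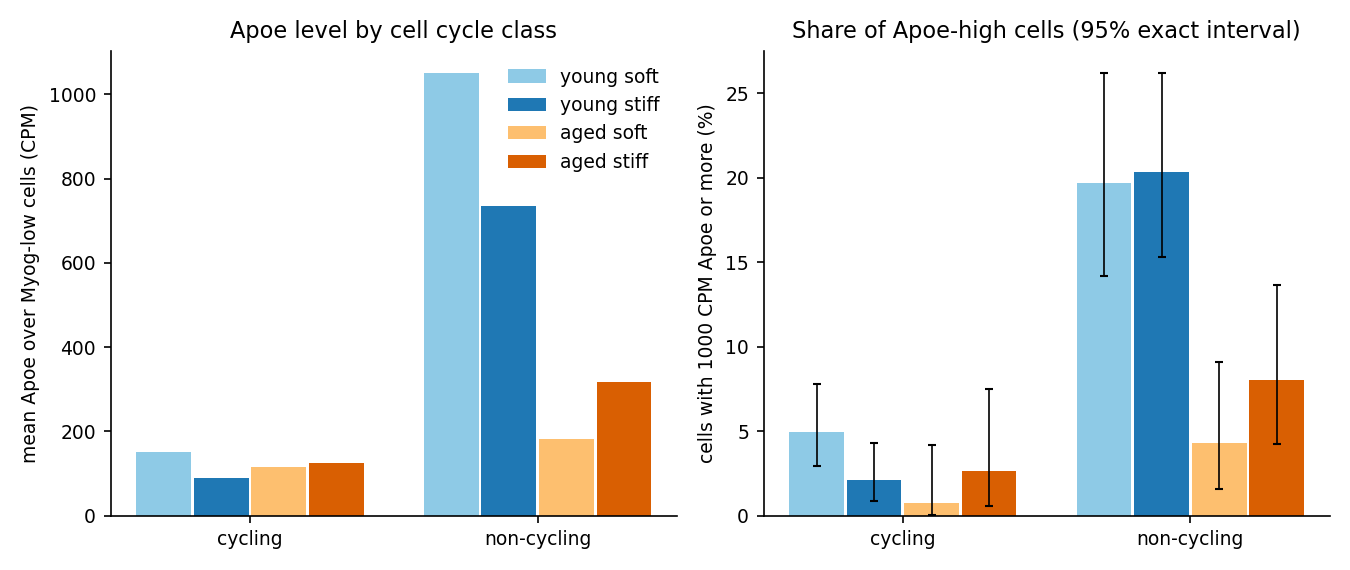
Mean Apoe of undifferentiated cells (left, CPM) and share of Apoe-high cells, at 1000 CPM or more (right, percent, 95% exact binomial intervals), in cycling and non-cycling cells of the 4 libraries. Non-cycling young cells average 1051 and 735 CPM, and cycling cells of all 4 libraries lie between 88.3 and 150 CPM, where 1 and 3 Apoe-high cells carry most of the aged UMIs.

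Apoe-high cells differed from undifferentiated cells without an Apoe UMI in a set of other genes that recurred across libraries. Of 5867 genes measured in all 4, 50 besides Apoe were at least 2-fold higher in Apoe-high cells in every library and 130 were at least 2-fold lower in every library. Counting Apoe, these are 0.869% and 2.22% of the genes. In single libraries 3.14%, 3.58%, 10.1% and 6.25% of genes were at least 2-fold higher and 4.13%, 7.69%, 16.7% and 8.40% lower, the aged soft values coming from 7 cells. The genes named next were picked after their values were seen. Apoe-high cells were somewhat shallower, with a median of 27128, 19885, 18164 and 20691 UMIs against 32021, 24884, 22947 and 25560.5.

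Tmem100, a transmembrane protein of bone morphogenetic protein signalling, averaged 65.2, 51.0, 86.6 and 109 CPM in Apoe-high cells against 3.72, 3.67, 9.36 and 5.96 CPM in cells without Apoe. Hsd11b1, which regenerates active glucocorticoid, stood at 118, 145, 103 and 66.5 CPM against 21.4, 15.1, 12.5 and 7.96 CPM. Htra1, a secreted serine protease, stood at 217, 228, 435 and 480 CPM against 39.7, 43.3, 96.6 and 97.9 CPM. These 3 genes were separated in the same direction in all 4 libraries. Maob (monoamine oxidase), Enpp2 (autotaxin, which makes lysophosphatidic acid), Sod3 (extracellular superoxide dismutase), Gpx3 (secreted glutathione peroxidase), Srgn, Itga1, Palmd and Mgp (matrix Gla protein) followed, each at least 2-fold higher in every library. Spp1, osteopontin, ran at 27652, 21784, 17660.4 and 14410.5 CPM in Apoe-high cells against 8955, 8963, 6818 and 5946 CPM.

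The 11 markers of undifferentiated muscle cells did not move as one. Their sum was lower in Apoe-high cells in every library, at 3134, 3499, 3130 and 3022 CPM against 3493, 3715, 4013 and 4164 CPM. In Myog-high cells the same sum was higher, at 5602, 6030, 6693 and 7130 CPM, so its height does not follow the undifferentiated state. Des alone gave 1250, 1516, 1476 and 1193 CPM of the sum in Apoe-high cells. Cdh15, a cadherin of muscle stem cells, had log2 ratios of 0.30, 0.33, -0.36 and -0.66, and Des, the intermediate filament desmin, of -0.44, -0.26, -0.41 and -0.91. Myf5 had log2 ratios of 0.81, 0.96, 1.66 and 1.39 and Notch3 of 1.13, 0.89, 1.02 and 1.00 in Apoe-high cells. Vcam1, an adhesion protein of muscle stem cells, had 2.62 and 2.43 in the young but 0.85 and 0.73 in the aged libraries. Pax7 itself differed little, with log2 ratios of 0.25, 0.66, -0.25 and 0.45. It was detected in 48 of 53, 50 of 53, 7 of 7 and 15 of 15 Apoe-high cells, against 94.0%, 89.7%, 87.9% and 86.8% of cells without Apoe, and the young soft share of 90.6% lay below that. Myod1 was lower throughout, at -1.24, -1.15, -2.10 and -1.15, while Cdkn1c, a cell cycle inhibitor, went both ways, from -1.87 to 1.43.

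Among the lower genes were those of the cell cycle and of contraction. Mki67 averaged 136, 25.4, 0 and 3.28 CPM in Apoe-high cells against 299, 303, 182 and 131 CPM. Cycling cells were 32.1%, 13.2%, 14.3% and 20% of Apoe-high cells against 74.3%, 70.7%, 52.0% and 49.5% of cells without Apoe. Mest, an imprinted gene, was nearly absent from Apoe-high cells, at 1.29, 6.17, 0 and 7.60 CPM against 128, 117, 176 and 155 CPM. The light chains Myl1 and Mylpf, the troponins Tnnt3, Tnni2 and Tnnc2, the myosin Myh1 and the glycolytic Eno3 were all at least 2-fold lower in every library, as were Sct and Prkg2. The group without Apoe held most of the few cells at 1000 CPM or more of Acta1, Myl1, Mylpf and Tnnt3 together. Of these 7, 5, 12 and 24 cells, 28.6%, 0%, 0% and 12.5% had an Apoe UMI. How far they set the contractile means was not tested. Ly6a, a surface antigen also counted as a fibro-adipogenic marker, was lower, with log2 ratios of -2.31, -1.93, -3.51 and -1.56.

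Macrophage markers, of a cell type known for Apoe, were at or near 0 in the Apoe-high cells. The 10 summed to 1.79, 8.37, 4.67 and 6.14 CPM, with 7 to 9 of them at 0, against 2.46, 3.84, 10.0 and 10.4 CPM in cells without Apoe. Ptprc was at 0 in all 4 libraries, Csf1r, the macrophage growth factor receptor, reached 1.07 CPM at most, and C1qa was at 0 in 3 libraries and at 3 CPM in aged stiff. Trem2, a macrophage receptor outside those 10, averaged 13.5, 4.54, 0 and 3.14 CPM against 0.145, 0.384, 0.338 and 0.245 CPM in cells without Apoe. The mesenchymal marker Pdgfra reached 7.87 CPM. Dcn, a fibroblast proteoglycan, averaged 124 CPM over the 7 Apoe-high cells of aged soft and 1.97 to 15.0 CPM in the other libraries, and its part in that library's Apoe was not tested. The 7 fibro-adipogenic markers together summed to 1259, 1135, 692 and 1138 CPM in Apoe-high cells against 655, 689, 997 and 905 CPM. Pdgfra, Dcn and Ly6a were a minor part of these sums. Other members, not given singly here, made up most of them, also in the libraries where the sum was higher in Apoe-high cells. The 4 pericyte and smooth muscle markers summed to 324, 303, 270 and 346 CPM against 171, 191, 182 and 163 CPM, higher in every library. Notch3, also an undifferentiated muscle marker, made up 249, 224, 218 and 211 CPM of these sums against 111, 118, 105 and 103 CPM. Without Notch3 the sums were still higher in both young libraries and in aged stiff, and lower in aged soft. The part of these markers was not tested either. No Apoe-high cell held UMIs of at least 2 markers of 1 non-myogenic class. That count left out Dcn, Ly6a and Notch3 among others, so it cannot speak to the Dcn of aged soft.

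**Figure D5:**
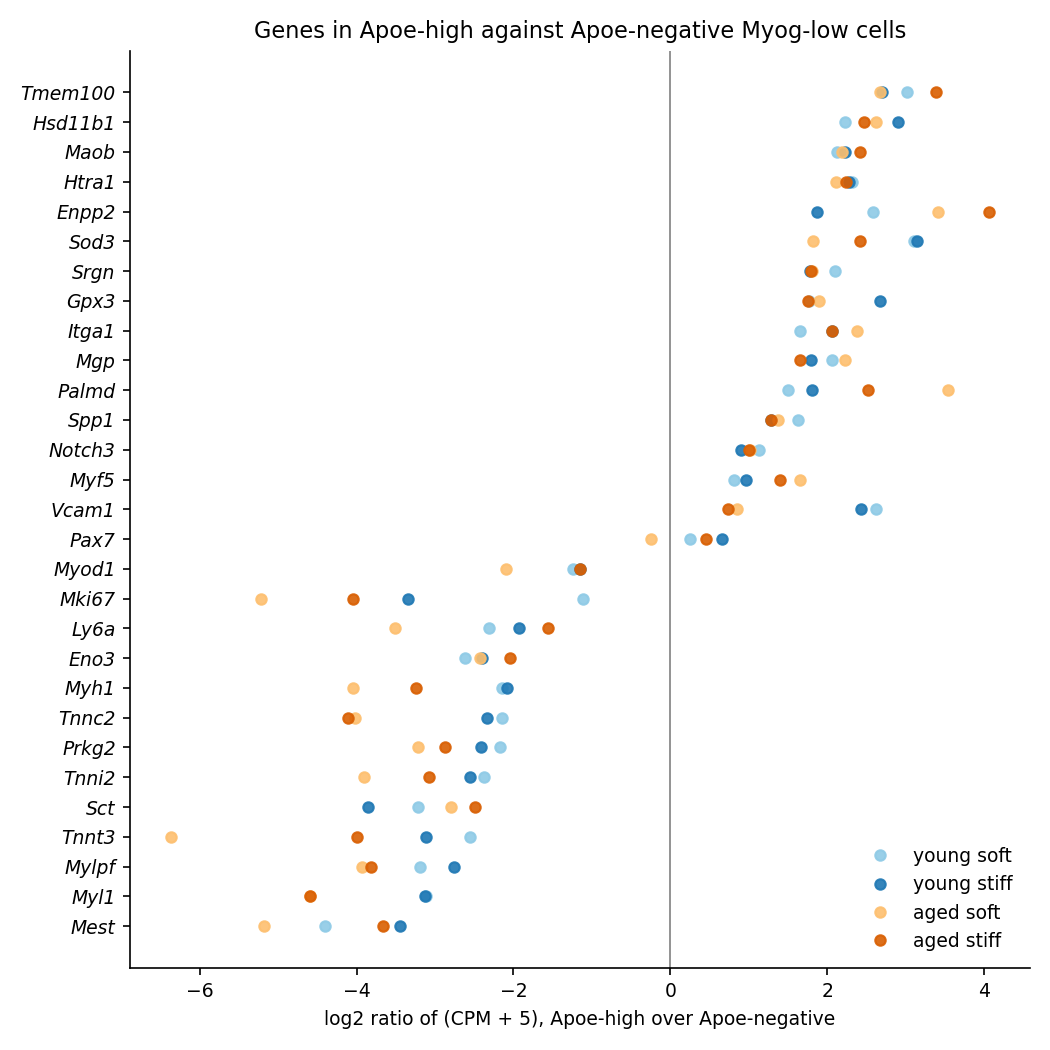
Log2 ratio of mean CPM plus 5 (horizontal axis) in Apoe-high over Apoe-negative undifferentiated cells for genes named in the text, 1 dot a library. Tmem100, Hsd11b1, Maob and Htra1 lie above 2 in every library, Pax7 lies near 0, and Mest and the contractile genes lie below.

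Genes that went with Apoe cell by cell gave a similar picture. Among 7698 genes with a UMI in at least 20% of undifferentiated cells of every library, the highest mean Pearson r over the 4 libraries belonged to Itm2b (0.36), Sod3 (0.34), Malat1 (0.34), Htra1 (0.31), Selenop (0.30), Pmepa1 (0.30), Ctsb (0.30) and Gpx3 (0.30). The lowest belonged to Lgals1 (-0.40), Tpm1 (-0.39), Eno3 (-0.39) and Ldha (-0.37). Myf5 had a mean r of 0.18, Myod1 of -0.25, Mki67 of -0.23 and Myog of -0.08. These are descriptions over cells that share a library and depth.

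Over the 12 mean levels of 3 classes (with Pax7, without Pax7, Myog-high) in 4 libraries, the genes most like Apoe among 7545 were Nfyb (r = 0.98), Hat1, Cyth2, Dnajc9, Alg14, Txndc12, Mms22l and Nrm (0.97 or more each). Cox14 (-0.97), Atp9a and Tmem55a (-0.96 each) were among the least like it. Hat1, a histone acetyltransferase, ran at 77.3, 64.1, 41.5 and 48.3 CPM in undifferentiated cells and at 26.4, 25.9, 19.9 and 21.9 CPM in Myog-high cells. Cox14, an assembly factor of cytochrome c oxidase, ran at 145, 144, 173 and 171 against 254, 267, 311 and 311 CPM. The points share cells and libraries, and the genes alike across classes were other genes than those alike from cell to cell.

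The measured receptors for apolipoprotein E stayed within 1.5-fold with both scalings. Of 15 lipoprotein receptors and their chaperones, 8 reached 20 CPM in undifferentiated cells in each comparison, and 0 passed 1.5-fold in any. Of all genes measured, 0.063% to 0.641% passed in each direction for stiffness and 3.48% to 5.36% for age, so 0 of 8 is near the background. The medians of their log2 ratios were -0.03 and 0.04 for stiff against soft in young and aged cells and -0.19 and -0.14 for aged against young on soft and stiff, against -0.02, -0.01, -0.05 and -0.04 over all genes measured. Lrp1, the large endocytic receptor, was at 203, 189, 208 and 191 CPM, the 2 young libraries first and soft before stiff. The receptor chaperones Lrpap1 and Mesd were at 98.0, 102, 66.7 and 67.1 CPM and at 84.1, 87.4, 63.1 and 66.6 CPM. In Apoe-high cells Lrp1 had log2 ratios of 0.81, 0.96, 0.79 and 0.66 over cells without Apoe.

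Sterol genes were mostly within the same range. Of 15 genes of cholesterol efflux and the liver X receptors, 7 or 8 were measured. Abca7, a lipid exporter, was the only one past 1.5-fold, at log2 ratios of 0.88 and 0.59 for aged against young on soft and stiff. That is 1 of 8 measured, where 3.48% and 3.88% of all genes were at least 1.5-fold higher. With median-of-ratios scaling Lpcat3 passed too, at 0.68 and 0.69. Abca1, the main cholesterol exporter and a target of those receptors, was too low to be counted among them. It averaged 11.0, 9.75, 4.67 and 17.1 CPM in Apoe-high cells and 0.443, 0.520, 2.92 and 0.985 CPM in cells without Apoe, which in aged soft is 7 cells. Npc2, which hands cholesterol out of lysosomes, was at 364 to 429 CPM, and Soat1 and Lpcat3 at 113 to 134 and 35.3 to 54.2 CPM. Of 20 genes of cholesterol synthesis, 14 to 17 were measured and 0 passed 1.5-fold. Of all genes, 0.063% to 0.641% passed in each direction for stiffness and 3.48% to 5.36% for age. With the other scaling members such as Nsdhl, Mvd and Mvk did pass for age, at 0.63, 0.65 and 0.63 on soft. The 3 highest were Fdps at 108 to 141 CPM, Srebf2 at 102 to 125 and Idi1 at 84.0 to 98.7 CPM.

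The next list held 19 apolipoproteins, lipases and related genes, not all of them secreted carriers of lipid. Of these, 12 were in the tables and 4 were measured, Lpl, Lipa, Apoo and Apool. None passed 1.5-fold in any comparison, which for 4 genes is near the background of 0.063% to 5.36% in each direction. Lpl, lipoprotein lipase, was at 164, 166, 109 and 136 CPM, Apoo at 36.6 to 41.3 CPM and Apool at 25.5 to 28.4 CPM. Apoc1, the apolipoprotein gene next to Apoe, stayed at 1.81 to 6.50 CPM in undifferentiated cells. It averaged 21.8, 14.3, 156 and 16.8 CPM in Apoe-high cells and 1.01 CPM or less in cells without Apoe. Of 10 genes near Apoe on its chromosome in the tables, Tomm40, its neighbour on the other side, was at 108 to 115 CPM, Gemin7 at 75.7 to 89.6 and Clptm1 at 73.6 to 87.8. None of those measured passed 1.5-fold for stiffness, where 0.063% to 0.641% of all genes did in each direction. For aged against young on stiff 3 of 7 measured, Nectin2, Bcam and Relb, were higher (3.88% of all genes). Their log2 ratios were 0.75, 0.60 and 0.82, where Apoe was lower. Bcam also passed on soft with the other scaling, at 0.66.

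The last lists were proteoglycans that hold the protein at the cell surface and proteases listed as cutting or clearing it. No cutting or clearing was measured here. Members past 1.5-fold were found for age, against 3.48% to 5.36% of all genes in each direction. For stiffness 0 passed, where 0.063% to 0.641% of all genes did, so that 0 is near the background. Of 7 measured heparan sulfate proteoglycans, Sdc3 alone passed 1.5-fold, at 176, 167, 94.6 and 83.2 CPM, which gave log2 ratios of -0.86 and -0.97 for aged against young. Sdc2 was at 289, 264, 222 and 205 CPM, Sdc4, which reached 0.59 for age on stiff with the other scaling, at 140 to 189 and Gpc1 at 136 to 156. Of 8 proteases, 5 to 7 were measured. Htra1 was at 71.0, 74.8, 125 and 135 CPM, log2 ratios of 0.77 and 0.81 for aged against young, and was thus higher in the aged libraries where Apoe was lower. Mme, neprilysin, had -1.05 and -1.43 for aged against young, Ide, the insulin-degrading enzyme, 0.57 and 0.76, and Plau, urokinase, -0.74 and -0.37. With the other scaling Ide passed on soft, at 0.77, and Plau did not, at -0.57. Ctsd was at 471 to 577 and Mmp14 at 94.5 to 102 CPM. Among members measured in all 4 libraries, Htra1 was the only one of these lists at least 2-fold higher in Apoe-high cells in every library.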

How the data were processed

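Single cells of cultured muscle stem cells were sequenced from the 3' end in droplets (Chromium v3 kit), per the labels' protocols. The submitters' processing notes name Cell Ranger 6.1.2 and Partek but not what each did. The sources used here give neither the genome build nor the filters, and coordinates are left out for that reason. The deposited tables hold log2(CPM + 1) per cell, found from the values. UMI counts were recovered from the value steps (whole within 0.05 for 99.95% to 99.96% of values above 0), and Apoe is not among the 9 symbols that fell between counts. A further deposited table paired symbols with identifiers. Kept were cells of 500 genes or more with no more than 20% mitochondrial UMIs, and doublets were neither called nor removed. Levels are means over cells of CPM. Differences are log2 ratios with 5 CPM added to each mean, which understates the difference of low genes, and genes under 20 CPM in both libraries were not measured. Intervals are exact binomial (shares) or exact conditional binomial (UMI ratios), at 95%. Of 1657 words of 30 bases from the 3' ends of Apoe transcripts, 0 were shared with another gene of the reference annotation.

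Named were Apoe, the 3 highest members of each list and up to 2 past 1.5-fold in each comparison, the genes most and least like Apoe by correlation, and the myogenic factors with Mki67 and Cdkn1c. Apoe, the lists and the markers were chosen with earlier results of these data known. Genes of Apoe-high cells, Abca1, Apoc1 and the third neighbour past 1.5-fold were picked after their values were seen. Some genes these rules select are not reported here. Neighbours of Apoe were read from RefSeq gene order. Count recovery and ratios were tested on simulated data. The 17 alternatives run changed the cell classes, filters, depth, pseudocount, scaling or averaging. Analyses used Python 3.11.15, NumPy 2.4.6, SciPy 1.17.1, pandas 2.3.3 and matplotlib 3.10.9.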

Additional observations from a re-analysis of the deposited data

Results flagged for a closer look

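The log2 ratio of Apoe on stiff over soft in undifferentiated cells was -0.40 in young and 0.63 in aged cells, a difference of 1.03 between ages. Each ratio compares 1 stiff with 1 soft library, and the ratios have opposite signs. With 1 library a group, this difference was not tested. In cells with no Myog UMI the ratios were -0.27 and -0.090.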

How the results depend on the processing

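All values are log2 ratios. For stiff against soft in young undifferentiated cells (-0.40), the values that moved beyond counting error were -0.25 with the Myog limit at 6, -0.23 without the 1% of cells with most Apoe, -0.54 with all libraries weighted to the same mix of Pax7 and cycling, and -0.27 in cells with no Myog UMI. In aged cells (0.63) they were 1.01 without that 1% of cells, 0.95 without the 1 cell with most Apoe, and -0.090, a change of direction, in cells with no Myog UMI. For aged against young on soft (-1.60) they were -1.46 with UMIs summed over cells, -1.40 with the limit at 6, -1.77 at 10000 UMIs a cell, -1.86 without the 1% of cells, -1.39 with median-of-ratios scaling, -1.84 weighted, -1.30 with no Myog UMI and -1.91 without the 1 cell. On stiff (-0.57) they were -0.77 with the limit at 8, -0.37 with median-of-ratios scaling, -0.77 weighted, -1.12 with no Myog UMI and -0.46 with contractile genes under 1000 CPM. For cells with against without Pax7 in young soft (-0.19), the values were -0.64 with summed UMIs, -0.49 and 0.18 with the limit at 6 and 8, 0.18 at 10000 UMIs, 0.13 without the 1%, 0.35 in non-cycling cells and 0.52 without the 1 cell. In young stiff (-0.50) they were -0.28 with summed UMIs, -0.30 with the limit at 8, 0.66 at 10000 UMIs, 0.74 without the 1% and 1.02 without the 1 cell. In aged soft (1.79) they were -1.12 at 10000 UMIs, a change of direction, 0.74 with 2 Pax7 UMIs required and 5.42 in non-cycling cells, and in aged stiff (3.14) 1.05 at 10000 UMIs. For undifferentiated against Myog-high cells, young soft (3.81) gave 3.96 with summed UMIs, 2.67 with the limit at 6, 3.98 with a pseudocount of 1 and 4.33 without the 1%. Young stiff (2.96) gave 2.75, 3.08 with that pseudocount and 3.92 without the 1%. Aged soft (2.32) gave 2.16 with the limit at 8, 2.48 with that pseudocount, 2.13 at 10000 UMIs and 2.76 without the 1%. Aged stiff (3.97) gave 3.69 and 3.71 with the limit at 6 and 8, 4.39 with that pseudocount and 4.20 without the 1%. The causes were not tested.

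Keeping all deposited cells, leaving out cells under 1% mitochondrial counts, those with non-myogenic markers or the 5% with most UMIs moved 0 of 12 values beyond counting error in each case. Medians gave no ratio, since the median cell had 0 CPM in every class. The cells with no Myog UMI, those with low contractile genes, the removal of 1 cell and the thinned cycling classes were chosen after seeing the data. No paired analysis was possible because each group is 1 library. With median-of-ratios scaling, genes past 1.5-fold with age were 456 higher and 180 lower on soft (226 and 348) and 475 and 161 on stiff (250 and 319). Counting intervals leave out the spread between cells and between cultures, and the class without Pax7 has 29 to 45 cells.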
